A study of Homo sapiens with 12 samples.

Results

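The genes EHF, ELF3, ETV1, ETV4, ETV5, ETS1, ETS2, FLI1, ELK3 and ELF1 belong to the ETS family of transcription factors and were followed through a study of CD44 knockdown and temozolomide in U251, an established human glioblastoma cell line. They are 10 of the 20289 gene rows in the count table and were found there by symbol. The 10 were chosen by their measured values in these same groups, so their levels and differences are given as a description, without a test. That holds also where groups of 3 libraries do not overlap, since the share of all genes with such groups is not given here. EHF and ELF3 were compared with ETV1, ETV4 and ETV5 and with the remaining 5. Tests are given for the 18 other ETS family genes, for 5 lists of genes around the ETS factors, and for the neighbours of EHF and CD44 on chromosome 11. The lists were chosen with earlier results of these data known, and the neighbours after the values were seen. Their tests are therefore not independent of these data.

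The 12 libraries of poly(A) RNA formed 4 groups of 3. Control cells carried a lentiviral control hairpin (shCtrl, named NC in some labels, genotype given as WT) and knockdown cells a lentiviral hairpin against CD44 (shCD44). Each kind of cell received DMSO, the solvent, or 50 µM temozolomide (TMZ), an alkylating drug used against glioblastoma, for 24 h. All groups therefore share lentiviral hairpin expression, high-glucose DMEM and fetal bovine serum. Whether the libraries of a group came from separate cultures is not stated in the labels. Each p-value therefore measures the spread between these libraries, which may be technical.

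Levels are given as CPM, counts scaled to the effective size of each library. Library totals ran from 13506946 to 24757977 counts, with control temozolomide replicate 1 the deepest, so that 3 counts correspond to 0.12 to 0.215 CPM. CD44, the targeted hyaluronan receptor, stood at 1091 ± 43.4 CPM in control DMSO libraries and at 419.8 ± 1.03 CPM in knockdown DMSO libraries (SD, n = 3). Under temozolomide it stood at 820.8 ± 25.8 CPM in control libraries and 326 ± 6.60 CPM in knockdown libraries (SD, n = 3). Of 10 markers of glioma or astroglial cells, vimentin, SOX2, SOX9, nestin, EGFR and FABP7 were present, while GFAP stayed at or below 1.80 CPM and S100B, OLIG2 and CHI3L1 were at or near 0. Their summed level, mostly vimentin, ran from 3990 to 4170 CPM in control DMSO, 4470 to 4550 in knockdown DMSO, 3100 to 3260 in control temozolomide and 3630 to 3810 CPM in knockdown temozolomide libraries. SOX2 went the other way with knockdown, from 389.9 ± 6.86 to 292 ± 2.58 CPM under DMSO (SD, n = 3). The basal keratins KRT5 and KRT14 were measured at 833 ± 19.0 and 259 ± 10.5 CPM in control DMSO libraries (SD, n = 3). The cell line is named as in the labels, and its identity was not tested. Of 10 leukocyte markers CD3E and AIF1 were among those with no count, and the summed level was at most 3.49 CPM in any library.

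ETS factors share a DNA-binding domain that recognises a GGAA core, and differ in the tissue where they are expressed and in the signals that reach them. EHF and ELF3 belong to an epithelial branch that is usually found in glandular, airway and squamous epithelia rather than in glia. ETV1, ETV4 and ETV5, the PEA3 group, are outputs of receptor tyrosine kinase and ERK signalling and are held down by the repressor CIC, which binds TGAATGAA-type octamers. ETS1, ETS2 and FLI1 are known from endothelial, blood and invasive tumour cells, and ELK3 is a ternary complex factor that acts with serum response factor.

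Sequence upstream of a start was available for 6 members (EHF, ELF3, ETV1, ETS2, ELK3 and ELF1) in RefSeq on GRCh38.p14. The members without an entry are ETV4, ETV5, ETS1 and FLI1. The 250 bases before the start are printed for EHF and ELF3, the members that were lower with knockdown, and for ETV1, a member that was higher with knockdown, as the 1 of its 6 windows that holds a CIC octamer. They read 5′ to 3′ on the gene's strand, and capitals mark GGAA or its complement TTCC and, in ETV1, the octamer TGAATGGA. The EHF window is chr11:34624007-34624256 on the plus strand, the ELF3 window chr1:202010337-202010586 on the plus strand and the ETV1 window chr7:13991426-13991675 on the minus strand. The EHF and ELF3 windows lie inside the spans annotated for the genes, which begin at 34621093 and 202007945.
EHF: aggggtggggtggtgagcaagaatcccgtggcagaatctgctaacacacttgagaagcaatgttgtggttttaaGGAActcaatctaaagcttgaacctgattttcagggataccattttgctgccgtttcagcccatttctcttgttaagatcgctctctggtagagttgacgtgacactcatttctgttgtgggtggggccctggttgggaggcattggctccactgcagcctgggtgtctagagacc
ELF3: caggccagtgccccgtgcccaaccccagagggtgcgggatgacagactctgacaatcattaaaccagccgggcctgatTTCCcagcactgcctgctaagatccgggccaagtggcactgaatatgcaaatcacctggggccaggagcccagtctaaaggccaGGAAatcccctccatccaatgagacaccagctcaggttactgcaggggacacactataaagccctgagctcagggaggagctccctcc
ETV1: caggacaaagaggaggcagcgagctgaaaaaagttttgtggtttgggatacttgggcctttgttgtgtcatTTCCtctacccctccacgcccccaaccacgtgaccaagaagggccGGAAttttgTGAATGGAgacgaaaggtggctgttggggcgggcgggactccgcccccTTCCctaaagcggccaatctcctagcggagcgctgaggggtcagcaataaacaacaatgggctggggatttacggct
The EHF window held 1 GGAA match, whose first base lies 176 bases before the start, and no match stood in the second EHF window of the table. The ELF3 window held 2 GGAA matches, 172 and 88 bases before the start, and a TATAAA at 34 bases. The ETV1 window held 3 GGAA matches, at 179, 134 and 77 bases. The second of them is part of a CCGGAA at 136 bases, and the octamer TGAATGGA lies at 125 bases. Both strands were searched in the same 250 bases of 34943 RefSeq promoters. GGAA was present in 92.7% of them, CCGGAA, which contains GGAA, in 14.5%, and TATAAA in 10.8%. A CIC octamer (TGAATGAA, TGAATGGA, TCAATGAA or TCAATGGA) was present in 3.17%. That share is per window, while the ETV1 window was picked from 6 for its octamer, so it does not say how rare the match is. A match describes these letters and is no measure of binding, and the counts per gene do not separate the starts of a gene.

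EHF was the most abundant ETS gene of these cells and, with ELF3, was lowest where CD44 knockdown and temozolomide were combined. EHF (ENSG00000135373, chromosome 11, 34621093 to 34661057, plus strand, GRCh38) encodes an epithelial ETS factor. It was measured at 414, 446 and 423 CPM in control DMSO libraries and at 205, 213 and 205 CPM in knockdown DMSO libraries. Under temozolomide the control libraries had 333, 347 and 361 CPM and the knockdown libraries 89.1, 119 and 97.3 CPM. No 2 of the 4 groups overlapped. Knockdown DMSO libraries held 48.5% of the control DMSO level, control temozolomide libraries 81.1% and knockdown temozolomide libraries 23.8%. In bulk RNA, fewer cells that express a gene and less of its RNA per cell cannot be told apart.

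The knockdown difference of EHF was -1.04 (SE 0.06) on the log2 scale under DMSO and -1.76 (SE 0.07) under temozolomide. Seen the other way, temozolomide went with a difference of -0.30 (SE 0.06) in control cells and -1.02 (SE 0.07) in knockdown cells. The difference between these temozolomide responses was -0.71 (SE 0.09). EHF was the member for which these responses lay farthest apart relative to the error. Without knockdown temozolomide replicate 2, the highest of its group at 119 CPM, that value was -0.85.

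ELF3 (ENSG00000163435, chromosome 1, 202007945 to 202017188, plus strand), an epithelial factor induced by inflammatory signals in many epithelia, was lower than EHF throughout. It was measured at 80.3, 74.0 and 79.5 CPM in control DMSO libraries and at 35.5, 34.9 and 34.8 CPM in knockdown DMSO libraries. The temozolomide groups had 47.0, 50.1 and 43.8 CPM in control libraries and 20.1, 22.5 and 20.1 CPM in knockdown libraries. As for EHF, the 4 groups did not overlap, in the order control DMSO, control temozolomide, knockdown DMSO and knockdown temozolomide. Unlike EHF, ELF3 had nearly equal temozolomide differences in control cells, at -0.73 (SE 0.05), and in knockdown cells, at -0.74 (SE 0.07). Its knockdown differences were -1.15 (SE 0.06) under DMSO and -1.16 (SE 0.06) under temozolomide.

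**Figure D1:**
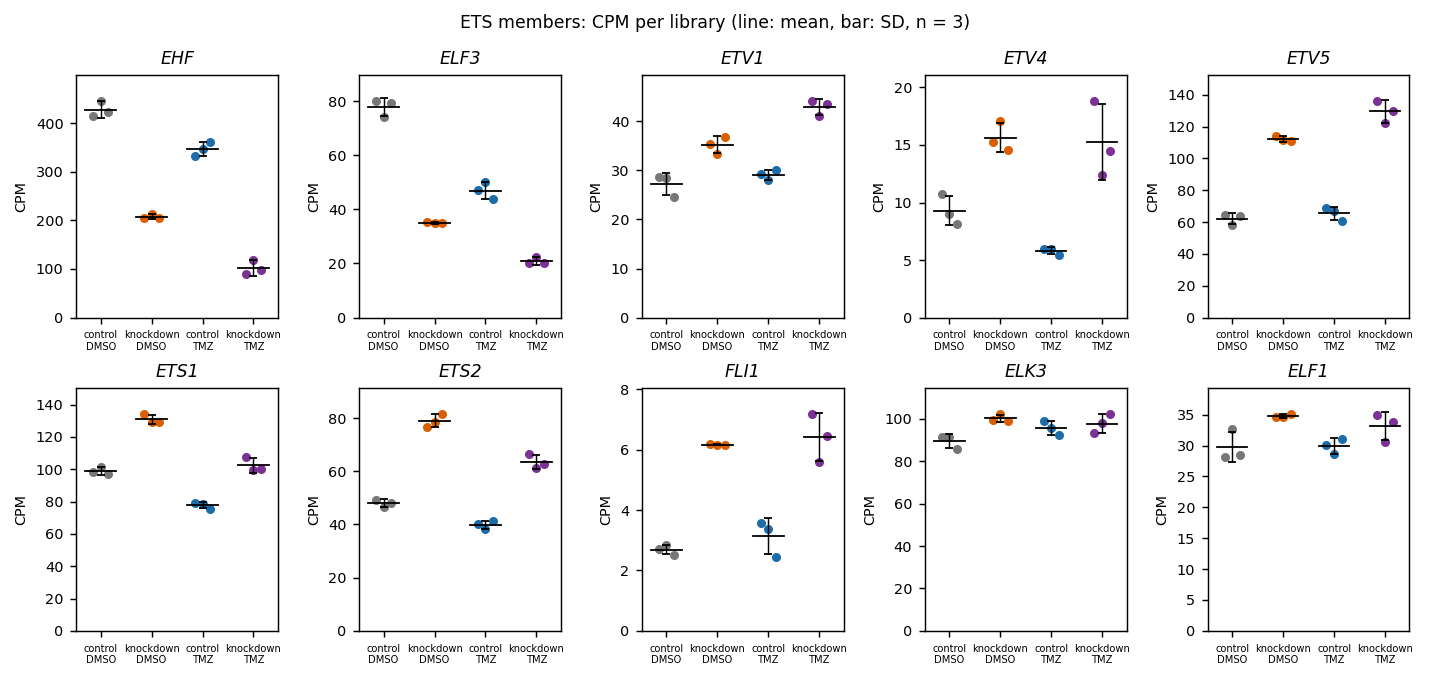
CPM of the 10 members in each of the 12 libraries, with a panel per gene; points are libraries, the line is the group mean and the bar the SD (n = 3). EHF and ELF3 are highest with control DMSO and lowest with knockdown temozolomide, while ETV5 stands at or above 111 CPM in all knockdown libraries and at or below 68.7 CPM in all control libraries.

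The 3 ETV genes were higher in knockdown than in control libraries under either treatment, with no overlap between the groups compared. ETV5 (ENSG00000244405, chromosome 3, 186046308 to 186110318, minus strand) was the most abundant of them per length. It was measured at 64.6, 58.4 and 63.8 CPM in control DMSO libraries and 114, 111 and 111 CPM in knockdown DMSO libraries. The control temozolomide libraries, at 68.7, 67.3 and 61.0 CPM, overlapped control DMSO, and the knockdown temozolomide libraries were the highest at 136, 122 and 130.1 CPM. The knockdown difference was 0.85 (SE 0.05) under DMSO and 0.98 (SE 0.05) under temozolomide.

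ETV4 (ENSG00000175832, chromosome 17, 43527844 to 43579620, minus strand) behaved differently from ETV5 in control cells. It was measured at 10.7, 9.02 and 8.17 CPM in control DMSO libraries and at 5.97, 5.99 and 5.45 CPM in control temozolomide libraries. Those control groups did not overlap, and the temozolomide difference was -0.67 (SE 0.15). The knockdown libraries had 15.3, 17.1 and 14.6 CPM with DMSO and 18.9, 12.4 and 14.5 CPM with temozolomide. These overlapped, with a difference of -0.04 (SE 0.13). The knockdown difference was 0.75 (SE 0.13) under DMSO and 1.38 (SE 0.14) under temozolomide, where knockdown libraries held 263% of the control level. The mean of ETV4 in knockdown temozolomide libraries was 15.2 ± 3.31 CPM (SD, n = 3).

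ETV1 (ENSG00000006468, chromosome 7, 13891228 to 13991425, minus strand) showed the smallest knockdown difference of the 3. It was measured at 28.6, 28.5 and 24.7 CPM in control DMSO libraries, 35.5, 33.4 and 36.8 CPM in knockdown DMSO libraries and 29.3, 28.1 and 30.1 CPM in control temozolomide libraries. The knockdown temozolomide libraries, at 44.2, 41.1 and 43.5 CPM, lay above all others. The knockdown difference was 0.37 (SE 0.07) under DMSO and 0.56 (SE 0.06) under temozolomide. In the deposited FPKM, fragments scaled to gene length and library total, the DMSO groups of ETV1 overlapped, with 7.17, 10.96 and 5.88 in control and 8.33, 8.52 and 9.69 in knockdown libraries. The DMSO difference of ETV1 on the log2(FPKM + 0.1) scale was 0.19.

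ETS1, ETS2 and FLI1 were also higher with knockdown under either treatment. ETS1 (ENSG00000134954, chromosome 11, 128458761 to 128587558, minus strand) was measured at 98.4, 101.4 and 96.9 CPM in control DMSO and 134, 129 and 129 CPM in knockdown DMSO libraries. With temozolomide it stood at 78.9, 78.6 and 75.7 CPM in control and 108, 99.7 and 100.2 CPM in knockdown libraries. Knockdown DMSO libraries were thus the highest and control temozolomide libraries the lowest, and knockdown temozolomide libraries overlapped control DMSO. The knockdown difference was 0.40 (SE 0.04) under either treatment, and the temozolomide difference was -0.35 (SE 0.04) in control and in knockdown cells.

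ETS2 (ENSG00000157557, chromosome 21, 38805307 to 38824955, plus strand), which like ETS1 is activated by ERK phosphorylation, showed larger knockdown differences: 0.72 (SE 0.05) with DMSO and 0.67 (SE 0.05) with temozolomide. It was measured at 49.4, 46.5 and 48.2 CPM in control DMSO, 76.7, 78.6 and 81.6 CPM in knockdown DMSO, 40.1, 38.4 and 41.3 CPM in control temozolomide and 66.3, 61.3 and 62.8 CPM in knockdown temozolomide libraries. No 2 of its groups overlapped. FLI1 (ENSG00000151702, chromosome 11, 128686535 to 128813267, plus strand), a factor of blood and endothelial cells, was the least abundant member.

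FLI1 was measured at 2.70, 2.85 and 2.53 CPM in control DMSO and 6.19, 6.15 and 6.15 CPM in knockdown DMSO libraries. The temozolomide groups had 3.57, 3.39 and 2.46 CPM in control and 7.18, 5.59 and 6.46 CPM in knockdown libraries. Each library held 41 to 121 FLI1 counts. The knockdown difference was 1.20 (SE 0.17) under DMSO and 1.01 (SE 0.15) under temozolomide on the count scale, and 0.58 and 0.53 on the log2(FPKM + 1) scale, which understates changes at such levels. FLI1 and ETS1 lie 99 kb apart on chromosome 11. Of 10 endothelial markers 5 passed the low-count filter. The summed level of all 10, mostly CDH5, ran from 43.9 to 49.8 CPM in control DMSO, 35.6 to 37.7 in knockdown DMSO, 22.2 to 25.2 in control temozolomide and 18.8 to 20.2 CPM in knockdown temozolomide libraries. The other 4 markers that passed stood higher with knockdown under DMSO. CDH5 stood lower, at 27.7 ± 0.75 CPM against 44.1 ± 2.69 CPM in control DMSO libraries (SD, n = 3). KDR had 2 to 3 counts per control DMSO library and 28 to 34 per knockdown DMSO library. Markers so low in control libraries could pass the filter through the knockdown groups alone, so nothing is read from their direction. PECAM1 stood at 0.36 ± 0.06 and 0.71 ± 0.18 CPM, TEK at 1.25 ± 0.37 and 2.15 ± 0.08, KDR, the main VEGF receptor, at 0.17 ± 0.03 and 1.81 ± 0.07, and ROBO4 at 0.60 ± 0.19 and 3.25 ± 0.67 CPM in control and knockdown libraries (SD, n = 3). VWF, TIE1, EMCN, ESAM and CLDN5 were near 0. The part of such cells in the FLI1 values was not tested.

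ELK3 and ELF1 changed least. ELK3 (ENSG00000111145, chromosome 12, 96194382 to 96269835, plus strand), a ternary complex factor, was measured at 91.7, 91.6 and 85.8 CPM in control DMSO and 99.7, 102.3 and 98.9 CPM in knockdown DMSO libraries. Its temozolomide groups overlapped, at 99.2, 95.8 and 92.3 CPM in control and 93.2, 97.9 and 102.4 CPM in knockdown libraries. The knockdown difference was 0.16 (SE 0.04) under DMSO and 0.03 (SE 0.04) under temozolomide. In FPKM with a pseudocount of 1 the DMSO difference of ELK3 was 0.25.

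ELF1 (ENSG00000120690, chromosome 13, 40932028 to 41061440, minus strand), a broadly expressed ETS factor, was measured at 28.2, 32.6 and 28.5 CPM in control DMSO and 34.6, 34.6 and 35.1 CPM in knockdown DMSO libraries. With temozolomide it stood at 30.2, 28.6 and 31.1 CPM in control and 35.0, 30.6 and 33.8 CPM in knockdown libraries, where the groups overlapped. The knockdown differences of ELF1 were 0.23 (SE 0.07) under DMSO and 0.14 (SE 0.07) under temozolomide, the latter 0.24 in FPKM with a pseudocount of 1.

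Counted by the threshold used for all genes (edgeR, adjusted p below 0.05), 8 members were higher and 2 lower with knockdown under DMSO, where 21.1% of the 12821 tested genes were called higher and 21.4% lower. Under temozolomide 6 members were higher, 2 lower and 2 not called, beside 22% higher and 20.3% lower of all tested genes. For temozolomide in control cells no member was called higher and 5 were called lower, beside 11.7% and 15.8% of all tested genes. In knockdown cells 2 were called higher (ETV1 and ETV5) and 4 lower, beside 9.05% and 13.2%. For the difference between the temozolomide responses 1 member, EHF, was called lower and none higher, beside 0.616% and 0.437%. The members were selected on these contrasts, so nothing is read from these counts. The comparisons share groups of libraries: each control or knockdown group enters more than 1 of them.

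**Figure D2:**
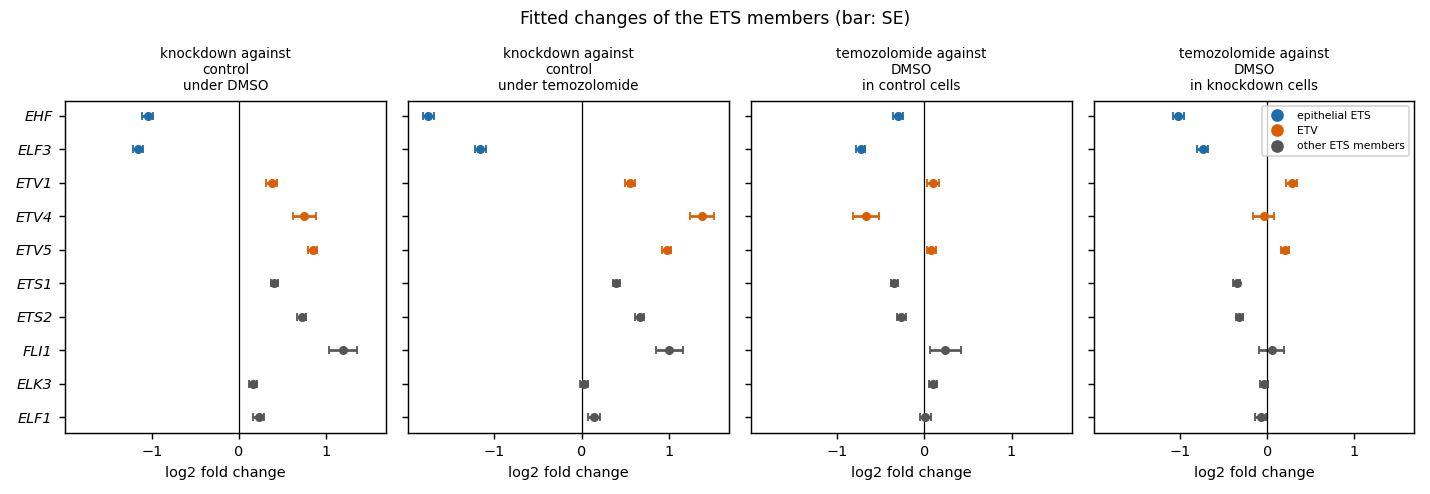
Fitted log2 fold changes of the 10 members in the 4 comparisons of 2 groups; bars are SE and colours mark EHF and ELF3, the 3 ETV genes and the 5 others. EHF and ELF3 lie left of 0 in all 4 panels, whereas ETV1, ETV4 and ETV5 lie right of 0 in both knockdown panels.

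The epithelial and ETV genes together separated the 4 groups. The mean log2 CPM of EHF and ELF3 minus that of ETV1, ETV4 and ETV5 was 2.83 ± 0.11 in control DMSO, 2.47 ± 0.06 in control temozolomide, 1.10 ± 0.0021 in knockdown DMSO and 0.07 ± 0.29 in knockdown temozolomide libraries (SD, n = 3). In knockdown temozolomide the libraries ran from -0.20 to 0.38. Since CPM is not scaled to gene length, only differences between groups can be read from this score. As fitted changes, the epithelial mean minus the ETV mean was -1.76 for knockdown under DMSO and -2.43 under temozolomide. For temozolomide it was -0.35 in control cells and -1.03 in knockdown cells. The members were placed in these classes by family and chosen by their values, so this separation is a description.

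**Figure D3:**
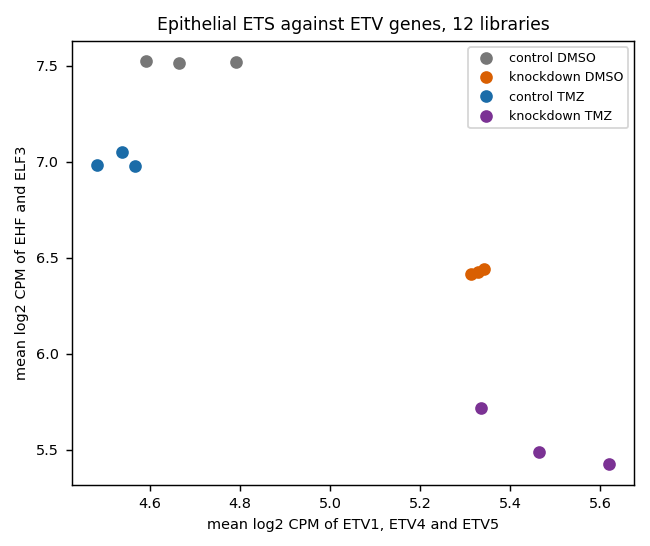
Mean log2 CPM of EHF and ELF3 (vertical axis) against the mean log2 CPM of ETV1, ETV4 and ETV5 (horizontal axis); each point is a library, coloured by group. The 6 knockdown libraries lie at the lower right, the temozolomide libraries lowest, and the 6 control libraries at the upper left.

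Levels of different genes can be set side by side only per length, in the deposited FPKM. In control DMSO libraries EHF stood at 170.3 ± 3.11 FPKM, followed by ELF3 at 30.0 ± 1.71, ETS1 at 23.2 ± 0.45 and ELK3 at 21.7 ± 0.20 FPKM (SD, n = 3). ETS2 at 16.2 ± 0.51 and ETV5 at 15.3 ± 1.21 FPKM overlapped each other, as did ELF1 at 10.0 ± 0.61 and ETV1 at 8.003 ± 2.64 FPKM (SD, n = 3). ETV4 at 4.21 ± 0.40 and FLI1 at 1.03 FPKM came last. In knockdown temozolomide libraries EHF still led at 41.2 ± 5.01 FPKM, now next to ETV5 at 33.3 ± 1.93 FPKM, with no overlap between them (SD, n = 3). ETS1 at 26.2 ± 0.97, ELK3 at 25.5 ± 1.45 and ETS2 at 23.1 ± 1.73 FPKM followed, and ELK3 overlapped each of the other two (SD, n = 3). ELF3, at 8.57 ± 0.73 FPKM, overlapped ETV4, at 7.66 ± 1.61 FPKM (SD, n = 3).

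The FPKM of all 28 ETS genes summed to 392 ± 2.25 in control DMSO, 336 ± 4.16 in knockdown DMSO, 338 ± 5.03 in control temozolomide and 281 ± 2.32 in knockdown temozolomide libraries (SD, n = 3). EHF made up 43.5% ± 0.54 of this sum in control DMSO, 39.5% ± 1.98 in control temozolomide, 25.3% ± 1.32 in knockdown DMSO and 14.7% ± 1.81 in knockdown temozolomide libraries (SD, n = 3). The share of ETV1, ETV4 and ETV5 was 7.01% ± 0.62, 7.98% ± 0.68, 13.4% ± 0.39 and 18.4% ± 1.10 in the same order (SD, n = 3).

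**Figure D4:**
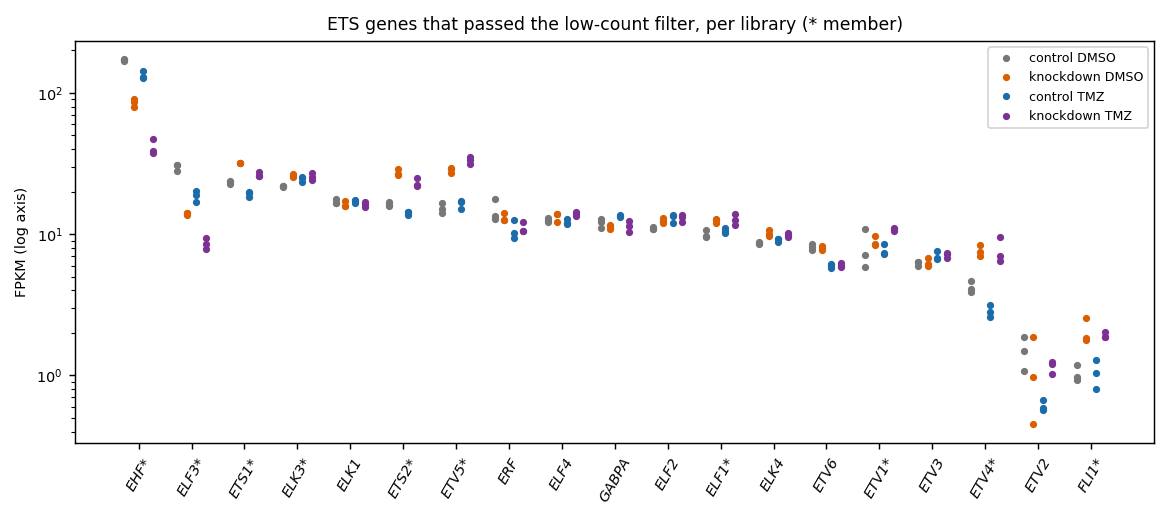
FPKM (log axis) of the 19 ETS genes that passed the low-count filter, per library and coloured by group; an asterisk marks a member. EHF is highest in every group, and the libraries of most genes that are not members lie close together.

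Of the 18 ETS genes outside the members, 9 were tested, and 2 of them changed with knockdown under DMSO and 2 under temozolomide, in each case 1 higher and 1 lower. Of all tested genes 21.1% were called higher and 21.4% lower under DMSO and 22% and 20.3% under temozolomide. With knockdown under DMSO, ELK4, a ternary complex factor, rose by 0.25 (edgeR adjusted p = 0.000225) and its relative ELK1 fell by 0.16 (edgeR adjusted p = 0.0336). The ELK1 call was lost under 8 alternatives, among them DESeq2 (adjusted p = 0.0658) and, in edgeR, leaving out control DMSO replicate 1 or 2 or knockdown DMSO replicate 1 or 3 (adjusted p = 0.0645 to 0.15). Under temozolomide ELF4 rose by 0.16 (edgeR adjusted p = 0.016) and GABPA, a factor of housekeeping and mitochondrial gene promoters, fell by 0.28 (edgeR adjusted p = 0.000598). The ELF4 call was lost without control temozolomide replicate 1 (adjusted p = 0.0672) or knockdown temozolomide replicate 2 (adjusted p = 0.0815) in edgeR.

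With temozolomide, ETV6, a repressor of the family, fell by 0.47 in control cells (edgeR adjusted p = 3.08e-07) and by 0.45 in knockdown cells (edgeR adjusted p = 5.74e-07). It stood at 49.7 ± 0.08 CPM in control DMSO, 35.9 ± 1.22 in control temozolomide, 48.3 ± 0.65 in knockdown DMSO and 35.3 ± 0.44 CPM in knockdown temozolomide libraries (SD, n = 3). In control cells ERF, a repressor regulated by ERK, fell by 0.31 (edgeR adjusted p = 0.0117), ELK4 rose by 0.17 (edgeR adjusted p = 0.00943) and ELF2 rose by 0.19 (edgeR adjusted p = 0.0312). ETV2 fell by 1.17 (edgeR adjusted p = 0.0463), from 11 to 19 counts per control DMSO library to 7 to 10. The ELK4 call was lost without control temozolomide replicate 2 (edgeR adjusted p = 0.0591) and in limma on log2(FPKM + 1) and log2(FPKM + 0.1) (adjusted p = 0.428 and 0.419), and that of ERF without control DMSO replicate 3 or control temozolomide replicate 2 or 3 (edgeR adjusted p = 0.0587 to 0.0914). Those of ELF2 (edgeR adjusted p = 0.0513 to 0.101) and ETV2 (edgeR adjusted p = 0.0771 to 0.166) were lost without any 1 of 5 libraries, all but control DMSO replicate 2 for ELF2 and replicate 1 for ETV2. ETV3 did not pass the threshold in any comparison, and no gene of the 18 passed it for the difference between the temozolomide responses.

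The 9 genes not tested were ELF5, ERG, ETV3L, ETV7, FEV, SPDEF, SPI1, SPIB and SPIC. FEV and SPIC had no count, which allows up to 3 counts per library, and the others had at most 9 counts in any library. ELF5 and SPDEF, the other epithelial ETS genes, had 0 to 2 and 0 to 9 counts per library. ETV7 had 5 to 8 counts per knockdown DMSO library and 1 to 2 per control DMSO library, and was not tested.

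EHF and CD44 lie on the same arm of chromosome 11, with 478 kb between the end of EHF and the start of CD44. Genes from 1 Mb before EHF to 1 Mb after CD44 were therefore examined, a window chosen after the values were seen. It held 18 named genes, of which 13 were tested, EHF and CD44 included. Without EHF, chosen for its values, and CD44, the target, 4 of 11 rose and 4 fell with knockdown under DMSO, beside 21.1% and 21.4% of all tested genes. Under temozolomide 5 rose and 3 fell, beside 22% and 20.3%.

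APIP and PDHX, which encode a methionine salvage enzyme and a subunit of pyruvate dehydrogenase, lie between EHF and CD44. PDHX stood at 71.2 ± 4.97 CPM in control DMSO and 41.4 ± 2.53 CPM in knockdown DMSO libraries (SD, n = 3), and fell by 0.78 (edgeR adjusted p = 1.53e-09) under DMSO and by 0.79 (edgeR adjusted p = 1.33e-09) under temozolomide. APIP fell by 0.60 (edgeR adjusted p = 0.00409) and 0.61 (edgeR adjusted p = 0.00446). On the other side of EHF, CAT, which encodes catalase, fell by 0.46 (edgeR adjusted p = 5.87e-08) under DMSO and 0.42 (edgeR adjusted p = 1.85e-07) under temozolomide. ELF5, the ETS gene next to EHF, was too low to test.

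Beyond CD44, FJX1 rose by 0.73 (edgeR adjusted p = 1.63e-07) and 0.81 (edgeR adjusted p = 9.97e-08), and TRIM44 rose by 0.19 (edgeR adjusted p = 0.000464) and 0.15 (edgeR adjusted p = 0.0035). CAPRIN1, farther out on the side of EHF, rose by 0.23 (edgeR adjusted p = 2.73e-06) and 0.26 (edgeR adjusted p = 7.12e-07). NAT10, between CAPRIN1 and CAT, fell by 0.11 under DMSO (edgeR adjusted p = 0.0484), a call lost without any 1 of 5 libraries (edgeR adjusted p = 0.0658 to 0.19), and was at -0.01 under temozolomide (edgeR adjusted p = 0.894). ABTB2, next to CAT, was at -0.18 (edgeR adjusted p = 0.0584) and -0.02 (edgeR adjusted p = 0.888). Whether position had a part in the EHF difference was not tested.

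**Figure D5:**
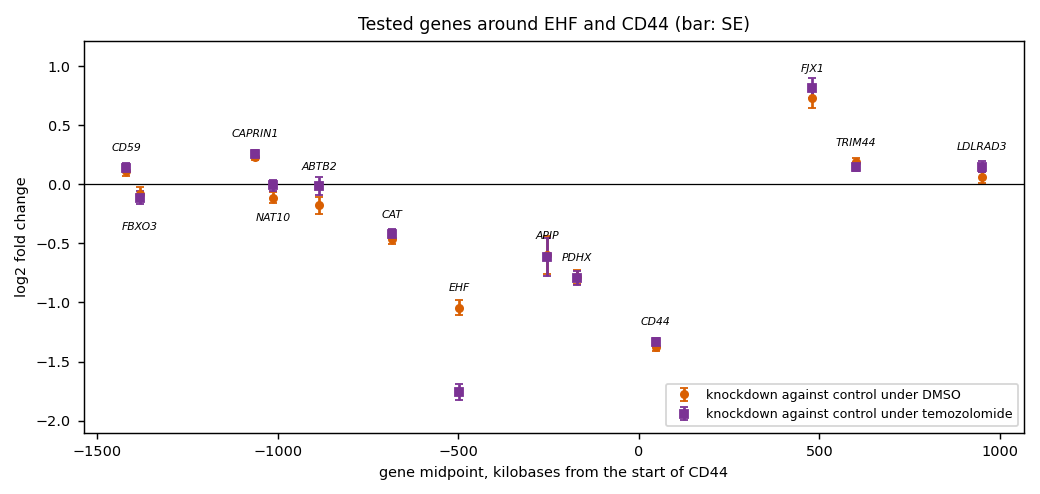
Knockdown log2 fold changes (bar: SE) of the 13 tested genes around EHF and CD44 under DMSO and under temozolomide, by distance of the gene's midpoint from the start of CD44 in kilobases. FBXO3, NAT10, ABTB2, CAT, EHF, APIP, PDHX and CD44 lie below 0 under either treatment, FBXO3, NAT10 and ABTB2 by at most 0.18. EHF is the gene whose 2 values stand farthest apart.

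Of 42 listed genes of the epithelial programme, the setting in which EHF and ELF3 are usually studied, 21 were tested and the others were too low. With knockdown 3 rose and 7 fell under DMSO, with a list median of -0.17, beside 21.1% higher and 21.4% lower of all tested genes. Under temozolomide 3 rose and 10 fell, with a median of -0.28, beside 22% and 20.3% (median of all genes within 0.01 of 0 in each comparison). These shares of all genes are also the background of the 4 lists that follow. The basal keratin KRT14 fell by 1.29 (edgeR adjusted p = 3.41e-14), from 259 ± 10.5 to 106 ± 6.32 CPM (SD, n = 3), and KRT5 fell by 0.56 (edgeR adjusted p = 1.83e-08). KRT14 has near-identical copies in the genome, so its counts are uncertain where reads could be shared. Among those that rose, the claudin CLDN1 rose by 0.12 (edgeR adjusted p = 0.0127), a call lost without control DMSO replicate 3 (adjusted p = 0.0581) or knockdown DMSO replicate 3 (adjusted p = 0.0869) in edgeR.

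With temozolomide 10 of the 21 fell in control cells and none rose, beside 15.8% and 11.7% of all tested genes. In knockdown cells 10 fell and 1 rose, beside 13.2% and 9.05%. KRT5 fell by 0.55 (edgeR adjusted p = 8.89e-08) in control cells and 0.85 (edgeR adjusted p = 2.47e-10) in knockdown cells. LAMB3 fell by 0.72 (edgeR adjusted p = 1.02e-08) in control cells. The group means of KRT14 had the same order as those of EHF, and KRT14 stood at 194 ± 2.58 CPM in control temozolomide and 62.4 ± 5.59 CPM in knockdown temozolomide libraries (SD, n = 3).

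Genes of ERK output and feedback share their upstream kinases with the ETV genes. With knockdown, 13 of the 19 tested rose and 4 fell under DMSO (list median 0.46), beside 21.1% and 21.4% of all tested genes, and 13 rose and 3 fell under temozolomide (list median 0.50). FOSL1, an AP-1 factor, rose by 1.23 (edgeR adjusted p = 1.33e-10) and 1.62 (edgeR adjusted p = 2.88e-12), and cyclin D1 (CCND1) by 0.61 (edgeR adjusted p = 2.49e-10) and 0.63 (edgeR adjusted p = 1.91e-10). The feedback inhibitor SPRY2 went the other way and fell by 0.43 (edgeR adjusted p = 9.34e-05) and 0.35 (edgeR adjusted p = 0.00119). With temozolomide 3 rose and 9 fell in control cells, beside 11.7% higher and 15.8% lower of all tested genes. In knockdown cells 1 rose and 7 fell, beside 9.05% and 13.2%. EGR1 rose by 0.88 (edgeR adjusted p = 0.000474) in control and 0.85 (edgeR adjusted p = 0.000207) in knockdown cells. PHLDA1 fell by 0.47 (edgeR adjusted p = 5.06e-10) and 0.48 (edgeR adjusted p = 3.44e-10) in the same order.

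Of 29 tested regulators of the PEA3 group and ERK kinases, 7 rose and 7 fell with knockdown under DMSO (list median 0.01), shares near the 21.1% and 21.4% of all tested genes. In this list 9 rose and 6 fell under temozolomide (list median 0.01). The receptor kinase AXL rose by 1.16 (edgeR adjusted p = 3.25e-13) and ATXN1, a partner of the repressor CIC, by 0.75 (edgeR adjusted p = 1.07e-10) under DMSO. The receptor kinases PDGFRA and FGFR3 fell by 0.84 (edgeR adjusted p = 1.56e-13) and 0.34 (edgeR adjusted p = 6.35e-05). With temozolomide 3 rose and 7 fell in control cells, beside 11.7% higher and 15.8% lower of all tested genes. In knockdown cells 1 rose and 8 fell, beside 9.05% and 13.2%. PDGFRA fell by 0.88 (edgeR adjusted p = 7.93e-13) in control cells and by 0.86 (edgeR adjusted p = 4.32e-12) in knockdown cells.

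Targets of ETS1, ETS2 and FLI1 known from matrix proteolysis and vessels were tested for 20 of 28 listed genes. With knockdown 12 rose and 3 fell under DMSO (list median 0.30), beside 21.1% and 21.4% of all tested genes, and 11 rose and 4 fell under temozolomide (list median 0.38). The 20 tested genes include KDR, with 2 to 3 counts per control DMSO library and 28 to 34 per knockdown DMSO library. Since KDR could pass the filter through the knockdown groups alone, nothing is read from its part in these knockdown counts. PLAU, the urokinase activator, rose by 0.93 (edgeR adjusted p = 5.29e-11). The endothelial cadherin CDH5 fell by 0.67 (edgeR adjusted p = 1.15e-07) and TIMP3 by 0.35 (edgeR adjusted p = 1.31e-08). With temozolomide 1 rose and 9 fell in control cells, beside 11.7% higher and 15.8% lower of all tested genes. In knockdown cells 1 rose and 10 fell, beside 9.05% and 13.2%. TIMP3 fell by 0.67 (edgeR adjusted p = 5.83e-12) and MMP14 rose by 0.24 (edgeR adjusted p = 0.0026) in control cells.

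Serum response factor and immediate-early genes, the partners and targets of the ternary complex factors, were tested for 14 of 15 listed genes. With knockdown 7 rose and 2 fell under DMSO (list median 0.14), beside 21.1% and 21.4% of all tested genes, and 7 rose and 1 fell under temozolomide (list median 0.19). The DMSO calls of FOSB and JUN were each lost without any 1 of 4 libraries (edgeR adjusted p = 0.0572 to 0.0804 and 0.0564 to 0.106). That of EGR2 was lost without any 1 of 5 (edgeR adjusted p = 0.0552 to 0.134). ATF3 rose by 0.88 (edgeR adjusted p = 4.22e-06) and NR4A1 fell by 0.79 (edgeR adjusted p = 0.000289) under DMSO. With temozolomide 3 rose and 2 fell in control cells, beside 11.7% higher and 15.8% lower of all tested genes. In knockdown cells 2 rose and 2 fell, beside 9.05% and 13.2%. JUN fell by 0.34 (edgeR adjusted p = 1.87e-05) in control cells and 0.21 (edgeR adjusted p = 0.00199) in knockdown cells. EGR1 stands in this list and in that of ERK output.

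Over the 12 libraries the genes most like EHF in log2 CPM, among 10572 ranked genes, were MFAP5 (Pearson r = 0.994), CXCL14 (r = 0.993) and the keratin KRT15 (r = 0.992). KRT15 stood at 919 ± 52.6 CPM in control DMSO, 409.8 ± 14.5 in knockdown DMSO, 649 ± 23.9 in control temozolomide and 229 ± 28.9 CPM in knockdown temozolomide libraries (SD, n = 3). For ELF3 they were TNFAIP2 (r = 0.994), ATP1B3 (r = 0.993) and EFEMP1 (r = 0.992). For ETV4 they were EMP1 (r = 0.986), BCAR3 (r = 0.982) and SDC1 (r = 0.977), and for ETV5 ESYT1 (r = 0.993), GADD45A (r = 0.991) and UBAP1 (r = 0.989). GADD45A stood at 23.2 ± 0.83 CPM in control DMSO and 51.7 ± 2.17 CPM in knockdown DMSO libraries (SD, n = 3). All genes share the 12 libraries and their 4 groups, so these correlations are descriptions with no test.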

How the data were processed

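Poly(A) RNA of 12 U251 libraries was measured in 4 groups of 3, with groups taken from the labels. The authors deposited estimated counts, of which 10.7% to 12% in a library were not whole numbers, and a table of FPKM. RSEM, HISAT2, StringTie 1.3.1, Bowtie2 2.2.8 and fastp 0.18.0 are named, per the submitters' processing notes. The annotation and genome build behind the tables are not stated there. Library totals were 13506946 to 24757977 counts.

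Counts were rounded and fitted in R 4.3.3 with edgeR 4.0.16: filterByExpr (12821 of 20289 genes), TMM scaling, 1 quasi-likelihood model over all 12 libraries with 4 group means, and Benjamini-Hochberg adjustment over all tested genes with a threshold of 0.05. The biological coefficient of variation was 3.9%. The SE is the size of the log2 fold change divided by the root of F. The alternatives were limma 3.58.1 on log2(FPKM + 1) and log2(FPKM + 0.1), DESeq2 1.42.0, other scalings and filters, a replicate block and leaving out each library.

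The members and the lists were chosen with earlier results of these data known. Named are all ETS genes, up to 2 called genes per list, direction and comparison with the smallest p, of which the text gives a part, and the 3 genes most like each of 4 members. CD44 and the neighbours of EHF are also named. Positions come from GENCODE v29 (GRCh38), joined by gene ID for 20171 of 20289 rows. Promoters come from RefSeq (GRCh38.p14), matched by symbol for 6 of 10 members. Some genes of the lists are counted but not reported here by name.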

Additional observations from a re-analysis of the deposited data

Results flagged for a closer look

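The keratin KRT14 and the junction protein JUP (plakoglobin), both of the epithelial programme list, differed in their temozolomide response between control and knockdown cells. For KRT14 the response was -0.41 in control and -0.76 in knockdown cells, a difference of -0.35 on the log2 scale (edgeR interaction term, adjusted p = 0.027). For JUP it was -0.16 in control and 0.21 in knockdown cells, a difference of 0.37 (edgeR interaction term, adjusted p = 0.0429). KRT14 fell with temozolomide in either kind of cell. The JUP fall in control cells was lost in DESeq2 (adjusted p = 0.089) and, in edgeR, with library totals alone (adjusted p = 0.234) and without any 1 of 5 libraries (adjusted p = 0.0614 to 0.233). Its rise in knockdown cells was lost in DESeq2 (adjusted p = 0.058) and, in edgeR, without any 1 of 3 libraries (adjusted p = 0.0526 to 0.145). Leaving out each of the 12 libraries in turn ended the KRT14 call in 6 cases (edgeR adjusted p from 0.0567 to 0.0883 in those) and the JUP call in 8 (edgeR adjusted p from 0.0519 to 0.126 in those), and neither was called by limma on FPKM. The cause was not tested.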

How the results depend on the processing

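No difference past the threshold changed sign under the alternatives run, among the members and the tested family, list and neighbour genes; some differences short of it, close to 0, did. Of 800 recomputed values of the members, 748 stayed within their spread and 52 moved, 42 of them on the FPKM scales and 9 with library totals alone as scaling. Of 4475 recomputed values of the tested family, list and neighbour genes (the neighbours added after seeing the data), 4248 kept their side of the threshold, 185 lost the call and 42 gained one. The epithelial minus ETV difference moved from -1.76 to -1.61 under DMSO and from -2.43 to -2.22 under temozolomide on the log2(FPKM + 1) scale. For the difference between the temozolomide responses it was -0.68, and -0.85 to -0.53 without 1 library. The number of remaining ETS genes called with knockdown under DMSO was 2, and 1 with library totals alone, DESeq2 and limma on log2(FPKM + 1) or log2(FPKM + 0.1), and 1 to 3 without 1 library. Under temozolomide it was 2, and 1 to 2 without 1 library. For temozolomide in control cells it was 5, but 3 in DESeq2 and 1 to 4 without 1 library. The number of genes called for the difference between the temozolomide responses was the least stable: 135, against 223 in DESeq2, 546 with no low-count filter, 3 and 0 in limma on log2(FPKM + 1) and log2(FPKM + 0.1), and 19 to 412 without 1 library. The replicate block gave 222. The labels do not say what a replicate number marks. No sign of pairing was seen between same-numbered libraries (correlations of deviations from -0.07 to 0.14 over 18 pairs, 4 of 12 libraries closest to their own number). The causes were not tested. The lowest counts limit FLI1, ETV2, ETV7 and the ETS genes not tested.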
